A study of Mus musculus with 12 samples.

Results

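The genes described here are 35 mouse genes of macrophages and of antigen presentation to T cells, taken as a fixed list of symbols out of 19938 genes measured. Each of the 35 was found in the annotation of the array platform, and each was represented by 1 probe set, a group of probes summarised as a single value. By role they comprise 9 genes of macrophage identity, 7 scavenger and tissue-resident receptors and enzymes, 6 Fc receptors and their adaptors, 5 genes of pattern recognition and the phagocyte oxidase, 6 genes of MHC class II presentation, and the pair Gpnmb and Lgals3. All values are log2 values as deposited, so a difference of 1 is a doubling. The list was drawn up with earlier results of these arrays known.

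RNA came from 4 vessels of untreated C57BL/6 wild-type mice aged 8 weeks, with 3 arrays labelled as biological replicates for each vessel: the ascending aorta, the coronary artery, the descending aorta and the superior mesenteric artery, which supplies the intestine. The title of the series refers to vessels that differ in their embryonic origin, and there was no treated or mutant group. Whether each replicate was a single animal or pooled animals is not in the labels. The p-values therefore reflect spread among these samples alone, and 3 arrays per vessel limit the precision. These are whole tissues, in which fewer cells of a type and less RNA per cell cannot be told apart.

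Macrophages are the main resident immune cells of the healthy arterial wall, where they lie mostly in the outer layer. They depend on the receptor Csf1r and the transcription factor Spi1 (PU.1), clear debris through scavenger receptors, bind antibody-coated particles through Fc receptors that signal with ITAM adaptors, and sense microbes through receptors such as Cd14 and the Toll-like receptors. Peptides from engulfed protein are displayed to CD4 T cells on MHC class II molecules (H2-Aa, H2-Ab1 and H2-Eb1 in mice), with the invariant chain Cd74 and the protease Ctss preparing the loading. B cells and dendritic cells also express MHC class II, and Laptm5 and Cd52 are shared by most leukocytes, so that several of the 35 genes do not mark macrophages alone.

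The proximal promoters of MHC class II genes carry a conserved set of short motifs, one of which, the Y box, is an inverted CCAAT sequence. The windows of H2-Aa and H2-Eb1 are shown, in lower case with the 8-letter motif CTGATTGG in capitals. They were the only windows of the 35 genes that held these letters. H2-Ab1, Cd74, Ctss and Cd86 had no window or none with these letters. The windows run from 250 bases before to 50 bases after the gene's start and are those of RefSeq on GRCm38.p6. H2-Aa lies at chr17:34287774-34288073 on the minus strand, and H2-Eb1 at chr17:34305617-34305916 on the plus strand, both written 5′ to 3′ along the gene.
H2-Aa: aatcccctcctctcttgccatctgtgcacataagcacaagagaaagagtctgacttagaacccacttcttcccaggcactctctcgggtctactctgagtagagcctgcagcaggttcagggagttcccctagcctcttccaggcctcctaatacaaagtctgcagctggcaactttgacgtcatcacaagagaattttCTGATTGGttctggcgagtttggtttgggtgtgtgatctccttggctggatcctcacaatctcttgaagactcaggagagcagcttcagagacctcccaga
H2-Eb1: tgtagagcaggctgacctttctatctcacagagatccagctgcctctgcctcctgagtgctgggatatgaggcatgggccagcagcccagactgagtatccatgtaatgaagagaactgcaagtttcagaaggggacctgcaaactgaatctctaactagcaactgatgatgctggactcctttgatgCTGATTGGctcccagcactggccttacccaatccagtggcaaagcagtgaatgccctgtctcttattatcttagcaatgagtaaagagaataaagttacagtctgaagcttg
The motif began 51 bases before the start of H2-Aa and 62 bases before that of H2-Eb1. Searched on both strands, these letters were present in 1346 of 32851 promoter windows of that length, or 4.1%. Of the 35 genes, 23 had a window in the table, some with more than 1, and 2 of their 28 windows held the motif. A match is a description of the letters and says nothing about what binds there.

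Arrays of the same vessel differed from each other in transcripts of leukocytes and of the vessel wall. In ascending aorta replicate 1, the mean of the 8 measured B cell and plasma cell markers was 8.53, against 4.13 and 4.37 in replicates 2 and 3 of that vessel, and the mean of the 6 T cell markers was 7.87, against 3.62 and 4.62. In replicates 2 and 3 of superior mesenteric artery the B cell mean was 7.56 and 6.98, against 5.56 in replicate 1, while the T cell mean was 5.82 and 6.00, against 4.56. All 6 smooth muscle markers were at least 1 log2 unit lower in these 3 arrays than in the remaining arrays of their vessel: their mean was 7.01 in ascending aorta replicate 1, against 9.16 and 9.26, and 6.73 and 7.30 in replicates 2 and 3 of superior mesenteric artery, against 9.84. The fibroblast mean was 6.19 in ascending aorta replicate 1 and at least 7.45 in each of the other 11 arrays. The dendritic cell mean was 5.27 in that array and 3.58 to 4.37 in the rest. Across the coronary arrays the cardiomyocyte mean was 10.17 to 10.42, and the smooth muscle mean was 5.22 to 5.80, below that of every array of the other vessels. The monocyte mean was 7.57 and 7.22 in replicates 2 and 3 of superior mesenteric artery, against 6.20 in replicate 1, and 6.21 in ascending aorta replicate 1. The neutrophil mean was 5.45 and 6.25 in those superior mesenteric arrays, against 4.23 in replicate 1, and 5.30 in ascending aorta replicate 1. Pancreatic acinar markers had a mean of 9.68 in superior mesenteric artery replicate 3, against 3.46 to 5.56 in the other arrays. The part that these transcripts play in the values of the 35 genes was not tested.

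No gene of the 35 passed the test across the 4 vessels, and a single one passed between a pair of vessels: Gpnmb, lower in coronary artery than in descending aorta. By limma's moderated F test with Benjamini-Hochberg adjustment over all 19938 genes and a threshold of 0.05, 4.72% of all genes passed and 0 of the 35. An unadjusted p below the threshold was reached by 4 of the 35, or 11.4%, against 16.4% of all genes. The heat map of the 35 genes shows where their variation lay instead. Superior mesenteric artery replicate 2 held the highest value for 21 genes and ascending aorta replicate 1 for 9, ascending aorta replicate 2 for 3, and coronary artery replicates 1 and 3 for 1 each. Averaged over the 35 genes, the log2 value was 6.95 in ascending aorta replicate 1, 7.68 and 7.23 in replicates 2 and 3 of superior mesenteric artery, and 5.99 to 6.42 in the other 9 arrays.

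**Figure D1:**
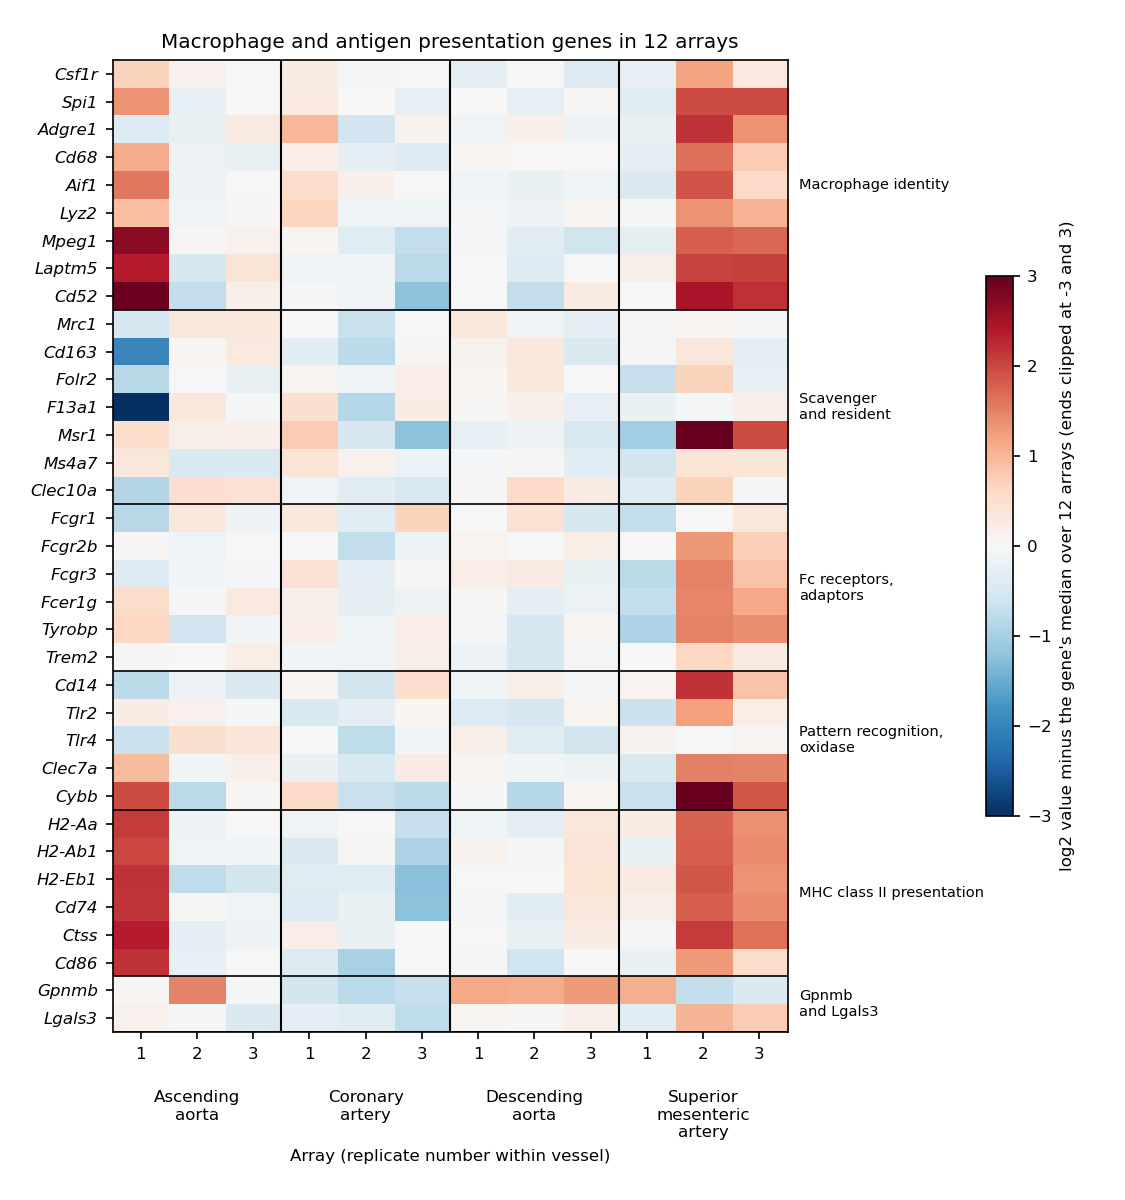
Log2 values of the 35 genes (rows, ordered by role) in the 12 arrays (columns, by vessel and replicate), each shown as the difference from that gene's median over the 12 arrays. Of the 35 genes, 13 lay at least 1 above their median in ascending aorta replicate 1, 25 in superior mesenteric artery replicate 2 and 16 in replicate 3, and at most 1 in any other array.

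As a group mean, the genes of macrophage identity were highest in the same 3 arrays, although Adgre1 was not high in ascending aorta replicate 1. The group includes Cd52 and Laptm5, which most leukocytes share. In ascending aorta replicate 1 these 2 lay 3.23 and 2.42 above the mean of replicates 2 and 3, against 0.61 for Csf1r. The mean of the 9 genes was 8.33 in ascending aorta replicate 1, 8.69 and 8.18 in replicates 2 and 3 of superior mesenteric artery, and 6.47 to 7.17 in the other arrays. Between vessels, all 9 lay lower in coronary artery and in descending aorta than in superior mesenteric artery, with median differences of -0.93 and -1.15, and none passed.

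Cd52, a small surface glycoprotein of most leukocytes, had the widest spread of vessel means among these 9. It stood at 11.18, 7.51 and 8.38 in ascending aorta, 8.22, 8.16 and 7.02 in coronary artery, 8.24, 7.49 and 8.52 in descending aorta, and 8.25, 10.69 and 10.44 in superior mesenteric artery. The 3 high arrays exceeded each of the others by more than 1, and superior mesenteric artery replicate 1 lay among the low ones. Every coronary array was below every superior mesenteric array, yet the difference of -1.99 ± 0.83 (SE) had an adjusted p of 0.284 in limma. Laptm5, a lysosomal membrane protein of leukocytes, followed the same course, with 10.83, 7.96 and 8.87 in ascending aorta, 8.36, 8.39 and 7.65 in coronary artery, 8.45, 8.07 and 8.49 in descending aorta, and 8.65, 10.50 and 10.51 in superior mesenteric artery. Its coronary minus superior mesenteric difference was -1.76 ± 0.63 (limma adjusted p = 0.203), and its descending aorta minus superior mesenteric difference was -1.55 ± 0.63 (limma adjusted p = 0.279). Neither pair of vessels overlapped for Laptm5.

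Lyz2, the lysozyme of macrophages and neutrophils, varied less. It measured 11.69, 10.66 and 10.81 in ascending aorta, 11.43, 10.65 and 10.65 in coronary artery, 10.76, 10.62 and 10.84 in descending aorta, and 10.74, 12.14 and 11.83 in superior mesenteric artery. Its near-identical relative Lyz1 may share probes with it, so the value is uncertain as to which of them it reports. Mpeg1, the pore-forming perforin-2 of phagocytes, reached 8.01 in ascending aorta replicate 1 and 7.10 and 7.03 in replicates 2 and 3 of superior mesenteric artery, and 4.55 to 5.44 in the other 9 arrays. Spi1 was at 6.66 in ascending aorta replicate 1 and 7.26 in both superior mesenteric artery replicates 2 and 3, against 4.95 to 5.61 elsewhere. Csf1r, the growth factor receptor, showed narrower steps: 7.25, 6.69 and 6.58 in ascending aorta, 6.80, 6.50 and 6.55 in coronary artery, 6.27, 6.55 and 6.17 in descending aorta, and 6.31, 7.74 and 6.86 in superior mesenteric artery. Every ascending aorta value of Csf1r was above every descending aorta value, by 0.51 ± 0.31 on average, with an adjusted p of 0.625 in limma.

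Adgre1, the classic surface marker of mouse macrophages, separated the 2 kinds of high array. Its values were 4.99, 5.18 and 5.67 in ascending aorta, 6.38, 4.83 and 5.50 in coronary artery, 5.28, 5.54 and 5.23 in descending aorta, and 5.17, 7.57 and 6.75 in superior mesenteric artery. Ascending aorta replicate 1, highest of the 12 arrays for Cd52, Laptm5 and Mpeg1, was the lowest of its vessel for Adgre1. The other 2 identity genes, Cd68, a lysosomal glycoprotein, and Aif1, the calcium-binding protein IBA1, reached 8.07 and 6.25 in ascending aorta replicate 1, with 8.62 and 6.57 for replicate 2 of superior mesenteric artery.

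**Figure D2:**
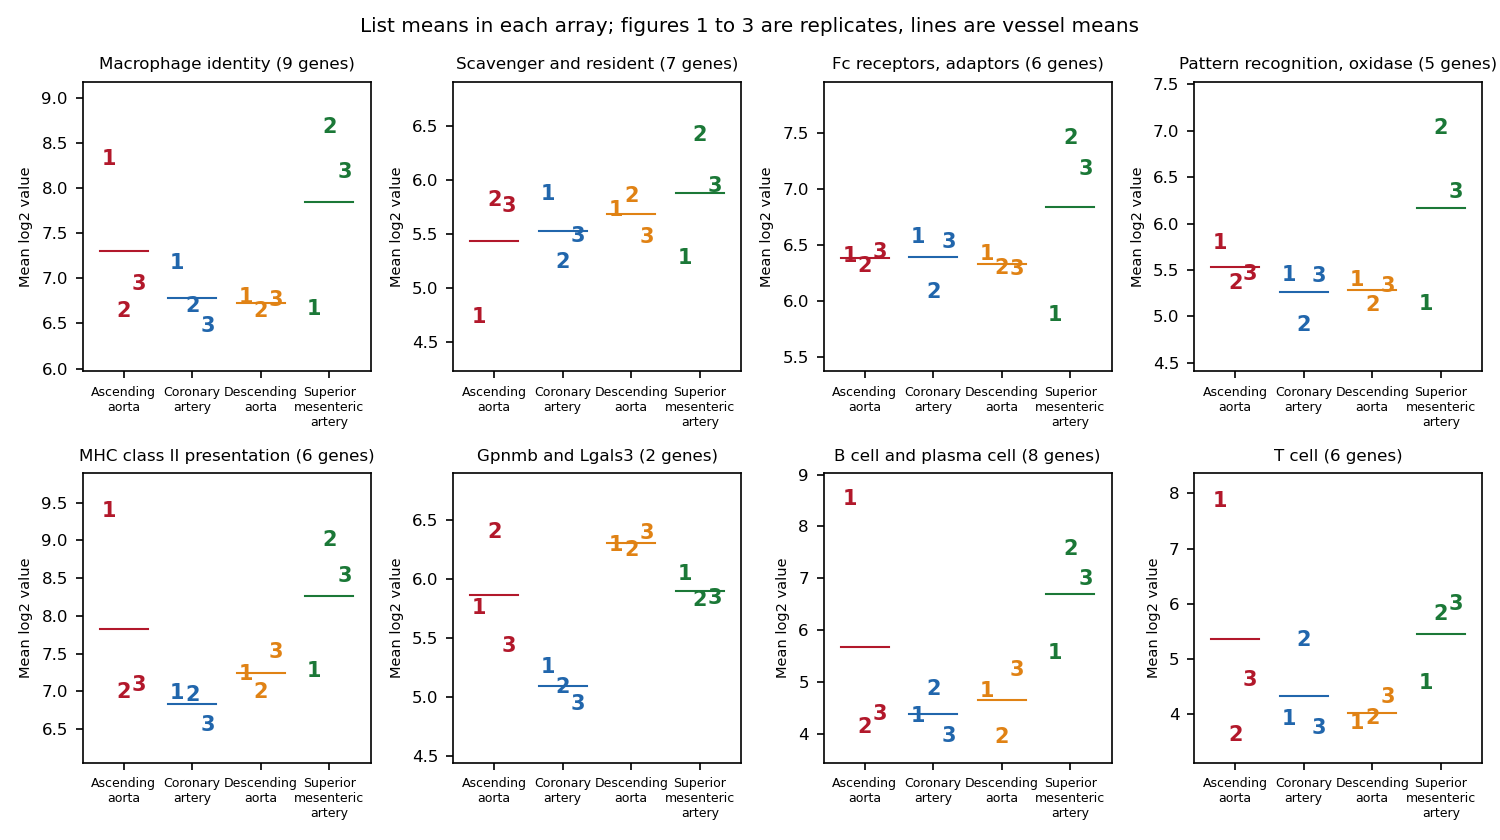
Mean log2 value of each role group of the 35 genes, and of the B cell and T cell marker lists, in every array. Digits are replicates and horizontal lines vessel means. Ascending aorta replicate 1 was above the other 2 arrays of its vessel for macrophage identity (8.33), MHC class II presentation (9.39), B cells (8.53) and T cells (7.87), and below both for the scavenger and resident group (4.72).

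Of the 7 scavenger and tissue-resident genes, 5 were lower in ascending aorta replicate 1 than in both other arrays of that vessel: F13a1, Cd163, Clec10a, Mrc1 and Folr2. F13a1, the A subunit of coagulation factor XIII made by resident macrophages, was at 4.01 in that array and at 7.75 and 7.37 in its fellow replicates. It measured 7.87, 6.54 and 7.62 in coronary artery, 7.43, 7.57 and 7.15 in descending aorta, and 7.20, 7.34 and 7.56 in superior mesenteric artery. Without ascending aorta replicate 1 the F13a1 values thus ran from 6.54 to 7.87, with no vessel apart from the others, and superior mesenteric artery replicates 2 and 3 were not high. Cd163, the receptor for haptoglobin-haemoglobin complexes, was likewise lowest there: 3.28, 5.31 and 5.55 in ascending aorta, 4.95, 4.48 and 5.30 in coronary artery, 5.36, 5.58 and 4.83 in descending aorta, and 5.23, 5.61 and 4.97 in superior mesenteric artery. The galactose-type lectin Clec10a had 3.22, 4.59 and 4.53 in ascending aorta. The mannose receptor Mrc1 had 6.15, 6.99 and 6.97 in that vessel, and the folate receptor Folr2 had 4.91, 5.74 and 5.53. Mrc1 was level across superior mesenteric artery, at 6.69, 6.70 and 6.61.

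Msr1, the class A scavenger receptor that takes up modified lipoprotein, was not among those 5. It stood at 5.76, 5.41 and 5.40 in ascending aorta, 6.00, 4.73 and 4.02 in coronary artery, 4.99, 5.07 and 4.74 in descending aorta, and 4.20, 8.26 and 7.19 in superior mesenteric artery. Superior mesenteric artery replicate 1 lay near the bottom of the range of the other vessels, and replicates 2 and 3 lay above all of it. Ms4a7, a membrane protein of tissue macrophages, was not among the 5 either, with 5.73, 4.94 and 4.97 in ascending aorta and 4.86, 5.82 and 5.76 in superior mesenteric artery. Over the 7 genes the median difference was -0.01 for descending aorta minus superior mesenteric artery and -0.24 for coronary minus superior mesenteric artery, against -1.15 and -0.93 for the identity genes. None of the 7 passed in any comparison.

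Among the 6 Fc receptors and adaptors, 3 (Fcgr3, Fcer1g and Tyrobp) were at least 1 higher in both replicates 2 and 3 of superior mesenteric artery than in replicate 1, and none was at least 1 above both other replicates in ascending aorta replicate 1. The mean of the 6 was 6.40, 6.31 and 6.44 in ascending aorta, and 5.87, 7.46 and 7.18 in superior mesenteric artery, against 6.08 to 6.57 in the coronary and descending aorta arrays. Fcer1g, the common gamma chain through which Fc receptors signal, had 9.31, 8.72 and 9.05 in ascending aorta, 8.95, 8.46 and 8.61 in coronary artery, 8.81, 8.48 and 8.59 in descending aorta, and 8.06, 10.23 and 9.89 in superior mesenteric artery. The superior mesenteric artery thus held both the lowest Fcer1g array and the highest. Tyrobp (DAP12), the adaptor of Trem2 and related receptors, showed the same order, with 7.86, 10.26 and 10.16 in superior mesenteric artery and 8.20 to 9.41 elsewhere.

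Fcgr2b, the inhibitory Fc receptor, came nearest to the threshold among the genes other than Gpnmb. It measured 5.74, 5.56 and 5.71 in ascending aorta, 5.69, 4.95 and 5.53 in coronary artery, 5.79, 5.68 and 5.89 in descending aorta, and 5.69, 6.99 and 6.42 in superior mesenteric artery. The coronary minus superior mesenteric difference was -0.98 ± 0.29 with a limma adjusted p of 0.104, and the highest coronary array lay just under the lowest superior mesenteric one, both 5.69 after rounding. The activating receptor Fcgr3 had 5.42, 7.72 and 7.09 in superior mesenteric artery and 5.83 to 6.66 elsewhere. Fcgr1, the high-affinity receptor, varied by 1.48 over all 12 arrays, with 3.35 in ascending aorta replicate 1 as its lowest value. Trem2, a lipid-sensing receptor, was lower in all descending aorta arrays (4.57, 4.23 and 4.71) than in all superior mesenteric ones (4.75, 5.38 and 5.01), by 0.54 ± 0.20 on average, without passing (limma adjusted p = 0.219). The Fc receptors are close relatives and their probe sets may share signal.

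In the pattern recognition group, the array with the highest value was superior mesenteric artery replicate 2 for 4 of the 5 genes, and Tlr4 was the exception. Cybb, the gp91phox subunit of the phagocyte NADPH oxidase, had 7.77, 4.99 and 5.83 in ascending aorta, 6.38, 5.14 and 5.02 in coronary artery, 5.77, 4.95 and 5.87 in descending aorta, and 5.13, 8.79 and 7.66 in superior mesenteric artery. It was high in ascending aorta replicate 1 too, which sets it with the leukocyte genes of the first group. Cd14, the lipopolysaccharide co-receptor, was not: its values were 4.61, 5.21 and 4.97 in ascending aorta, 5.46, 4.85 and 5.91 in coronary artery, 5.30, 5.58 and 5.33 in descending aorta, and 5.48, 7.56 and 6.26 in superior mesenteric artery. Every ascending aorta array lay below every superior mesenteric one for Cd14, with a difference of -1.50 ± 0.42 and a limma adjusted p of 0.274. Clec7a (Dectin-1), which binds fungal glucan, had 5.12 in ascending aorta replicate 1 and 5.69 and 5.65 in replicates 2 and 3 of superior mesenteric artery, against 3.70 to 4.41 in the rest. Tlr2, a receptor for bacterial lipoproteins, ranged over 1.88. Tlr4, the lipopolysaccharide receptor, had 5.53, 6.66 and 6.55 in ascending aorta and was level in superior mesenteric artery, at 6.28, 6.20 and 6.25.

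**Figure D3:**
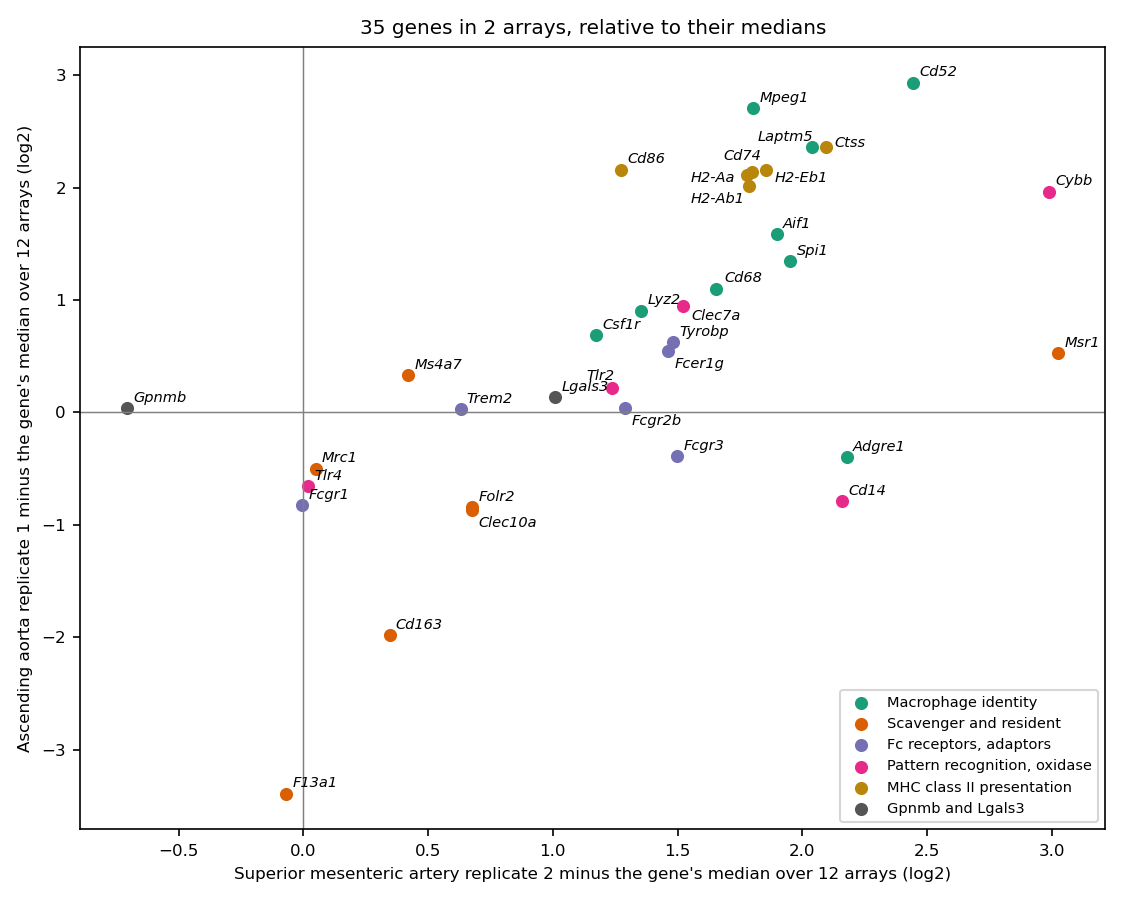
Each of the 35 genes placed by its log2 difference from its own median over 12 arrays, in superior mesenteric artery replicate 2 (horizontal) and in ascending aorta replicate 1 (vertical), coloured by role. MHC class II genes and most identity genes lie high on both axes, Msr1, Cd14 and Adgre1 lie high on the horizontal axis alone, and F13a1 and Cd163 lie near 0 on it and low on the vertical one.

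The MHC class II genes moved together between arrays, and all 6 were high in ascending aorta replicate 1. Their mean was 9.39, 6.99 and 7.08 in ascending aorta, 6.98, 6.95 and 6.55 in coronary artery, 7.23, 6.99 and 7.52 in descending aorta, and 7.27, 9.0 and 8.53 in superior mesenteric artery. All 6 lay lower in coronary artery than in ascending aorta, descending aorta and superior mesenteric artery, with median differences of 0.99 for ascending aorta minus coronary artery, -0.43 for coronary minus descending aorta and -1.42 for coronary minus superior mesenteric artery. None of the 6 passed in any of these. The B cell mean was also at its highest in ascending aorta replicate 1 and superior mesenteric artery replicates 2 and 3. In the same arrays, in that order, the dendritic cell mean was at its highest (5.27, 4.37 and 4.28). The mean of the macrophage identity group, which includes the general leukocyte genes Cd52 and Laptm5, was at its highest there too (8.33, 8.69 and 8.18). B cells, dendritic cells and macrophages all express MHC class II, and the part of each in these values was not tested.

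H2-Aa, the alpha chain of the I-A molecule, whose promoter is printed above, had 10.85, 8.60 and 8.72 in ascending aorta, 8.61, 8.76 and 8.05 in coronary artery, 8.62, 8.46 and 9.08 in descending aorta, and 8.96, 10.52 and 10.11 in superior mesenteric artery. H2-Eb1, the beta chain of the I-E molecule and the other promoter shown, had 9.56, 6.64 and 6.86 in ascending aorta, 7.04, 7.04 and 6.15 in coronary artery, 7.40, 7.40 and 7.81 in descending aorta, and 7.66, 9.25 and 8.76 in superior mesenteric artery. For both genes every coronary array was below every superior mesenteric one. The difference was -1.39 ± 0.54 for H2-Aa and -1.81 ± 0.64 for H2-Eb1, with limma adjusted p of 0.239 and 0.191. H2-Eb1 in ascending aorta replicates 2 and 3 lay below all descending aorta arrays, while replicate 1 lay above them all. C57BL/6 mice carry a defective gene for the I-E alpha chain, so H2-Eb1 RNA is known to be made in this strain without the I-E molecule reaching the surface.

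Cd74 had 10.58, 8.48 and 8.32 in ascending aorta, 8.04, 8.24 and 7.21 in coronary artery, 8.41, 8.10 and 8.77 in descending aorta, and 8.63, 10.25 and 9.86 in superior mesenteric artery. It was the 1 gene of the 6 whose coronary arrays lay below all arrays of ascending aorta as well as of superior mesenteric artery. The ascending aorta minus coronary difference was 1.30 ± 0.56 (limma adjusted p = 0.301), and the coronary minus superior mesenteric difference was -1.75 ± 0.56 (limma adjusted p = 0.139). Ctss, the protease that trims Cd74, had 9.29, 6.66 and 6.77 in ascending aorta and 6.88, 9.03 and 8.55 in superior mesenteric artery, against 6.71 to 7.16 in coronary artery and descending aorta. The costimulatory ligand Cd86 reached 5.94 in ascending aorta replicate 1 and 5.06 and 4.34 in replicates 2 and 3 of superior mesenteric artery, with 2.81 to 3.81 in the others. H2-Ab1, the beta chain of I-A, ran alongside H2-Aa, with 10.13 in ascending aorta replicate 1 and 9.90 and 9.54 in replicates 2 and 3 of superior mesenteric artery, against 7.20 to 8.51 in the others.

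Gpnmb is a transmembrane glycoprotein of lysosomes known from lipid-laden macrophages and also made by other cells such as melanocytes. Within superior mesenteric artery it ran against most of the list, being highest in replicate 1. It stood at 4.89, 6.32 and 4.80 in ascending aorta, 4.30, 4.04 and 4.16 in coronary artery, 5.98, 5.96 and 6.11 in descending aorta, and 5.93, 4.14 and 4.41 in superior mesenteric artery. The coronary and descending aorta arrays did not overlap and were tight, at 4.17 ± 0.13 in coronary artery and 6.02 ± 0.08 in descending aorta (SD, n = 3 each). Gpnmb was thus 3.61-fold lower in coronary artery, a log2 difference of -1.85 ± 0.45 (SE) with a limma adjusted p of 0.0450; 3.14% of all genes passed in this comparison and 1 of the 35, a share near that background. Transcripts of other cell types differed between the same vessels: 5 of 6 adipocyte markers and 3 of 4 brown adipocyte markers passed in limma as lower in coronary artery, with median differences of -2.45 and -3.23. The adipocyte mean was 6.13 in coronary artery and 8.81 in descending aorta, the brown adipocyte mean 3.75 and 7.54, the smooth muscle mean 5.59 and 7.90, and the cardiomyocyte mean 10.29 and 4.94. Their part in the Gpnmb difference was not tested. The Gpnmb pass was narrow: over 23 alternative settings the difference stayed between -1.92 and -1.79, the adjusted p ran from 5.05e-05 to 0.152, and 11 settings kept the call. Many of the 23 settings, such as another threshold or leaving out an array of another vessel, cannot change the difference itself. Among the 12 settings that each leave out 1 array, Gpnmb passed in 5: leaving out any coronary or descending aorta array, or superior mesenteric artery replicate 3, ended the call.

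Gpnmb was the 1 gene at least 1 lower in replicates 2 and 3 of superior mesenteric artery than in replicate 1. In ascending aorta it was highest in replicate 2. It was above the coronary arrays in all ascending aorta arrays (difference 1.17 ± 0.45, limma adjusted p = 0.239), and descending aorta was above superior mesenteric artery in all arrays (difference 1.19 ± 0.45, limma adjusted p = 0.228). Lgals3 (galectin-3), a sugar-binding protein secreted by activated macrophages, showed no such pattern, with 6.63, 6.47 and 6.06 in ascending aorta, 6.21, 6.13 and 5.73 in coronary artery, 6.58, 6.52 and 6.66 in descending aorta, and 6.14, 7.51 and 7.27 in superior mesenteric artery. Its coronary minus descending aorta difference was -0.57 ± 0.30, also without overlap of the arrays (limma adjusted p = 0.502).

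**Figure D4:**
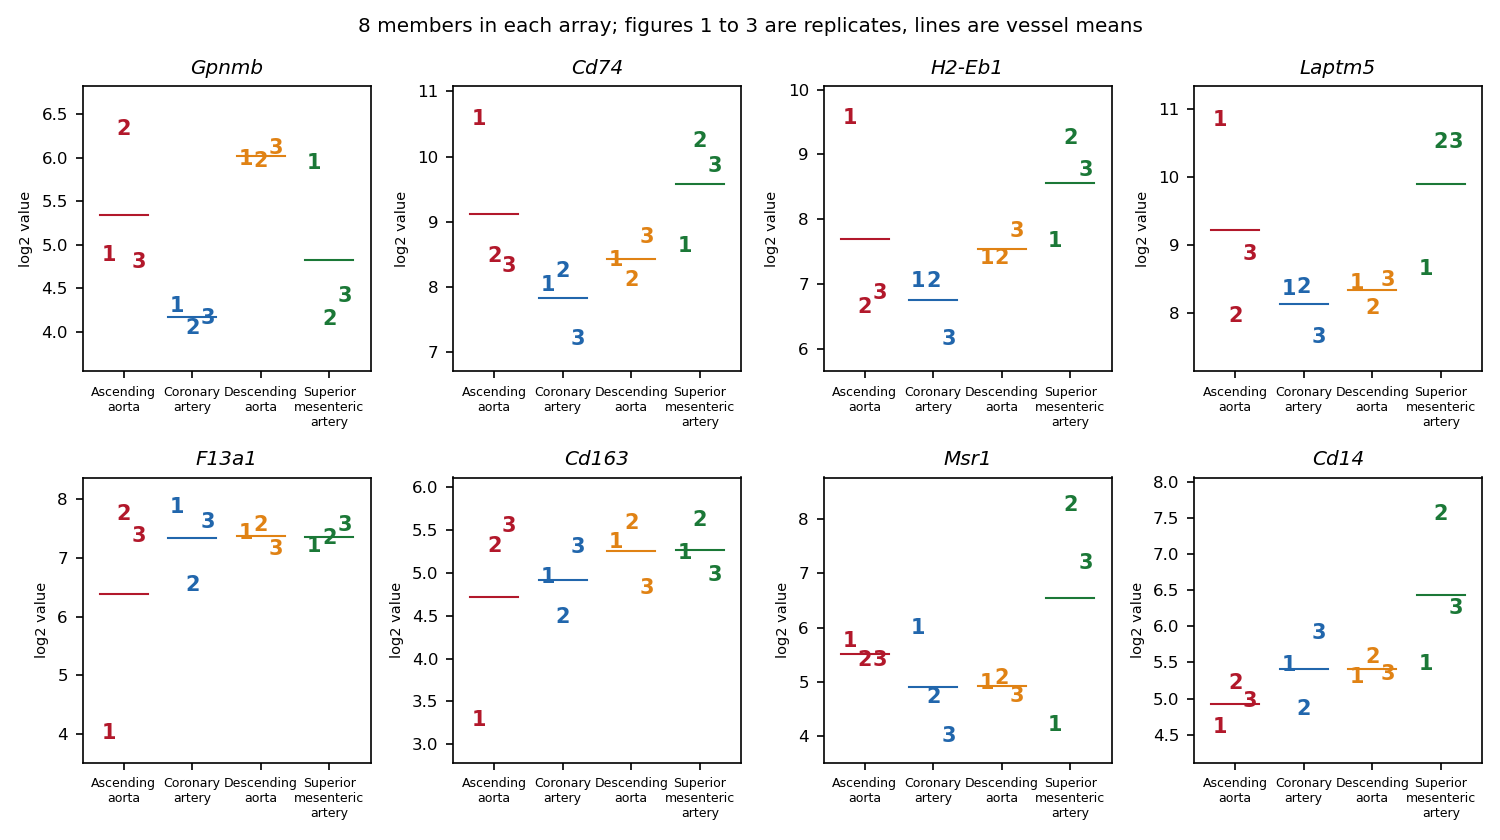
Log2 values of 8 of the genes in every array. Digits are replicates and horizontal lines vessel means, and the vertical scale differs between panels. Gpnmb separates coronary artery (4.04 to 4.30) from descending aorta (5.96 to 6.11), whereas Cd74, H2-Eb1 and Laptm5 are high in ascending aorta replicate 1 and superior mesenteric artery replicates 2 and 3, F13a1 and Cd163 are low in ascending aorta replicate 1, and Msr1 and Cd14 are high in superior mesenteric artery replicate 2.

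Large differences between replicates were then counted over the 35 genes and over all genes. In ascending aorta, replicate 1 was at least 1 above both other replicates for 13 of the 35 genes, or 37.1%, against 5% of all genes, and at least 1 below both for 4 (F13a1, Cd163, Clec10a and Tlr4), against 6.24% of all genes. In superior mesenteric artery, replicates 2 and 3 were both at least 1 above replicate 1 for 20 genes, or 57.1%, against 1.76% of all genes, and both at least 1 below it for Gpnmb alone, against 2.34%. Both of these high patterns held for 12 genes: Spi1, Cd68, Aif1, Mpeg1, Laptm5, Cd52, Cybb, H2-Aa, H2-Ab1, H2-Eb1, Cd74 and Ctss. A further 8 had the superior mesenteric pattern alone: Adgre1, Lyz2, Msr1, Fcgr3, Fcer1g, Tyrobp, Clec7a and Lgals3. The same pattern alone was seen in 3 of 5 monocyte markers (Ccr2, Plac8 and S100a4) and in 4 of 8 neutrophil markers (S100a8, S100a9, Csf3r and Retnlg), and the part of such cells in these values was not tested. None of the 4 genes low in ascending aorta replicate 1 was among the 20. These arrays were singled out after their values were seen, so the counts describe them and test nothing.

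Set against superior mesenteric artery, each of the other 3 vessels had lower values for most of the 35 genes, and none passed. For coronary minus superior mesenteric artery, the median difference was -0.87 with 32 genes below 0, against a median of -0.02 over all genes; 3.24% of all genes passed and 0 of the 35, while an unadjusted p below the threshold was reached by 10 of the 35, or 28.6%, against 14.8% of all genes. For descending aorta minus superior mesenteric artery, the median was -0.77 with 30 below 0, against -0.01 over all genes; 3.2% of all genes passed and 0 of the 35, and the unadjusted p was below the threshold for 7, or 20%, against 13.9% of all genes. For ascending aorta minus superior mesenteric artery, the median was -0.48 with 31 below 0, against -0.0049 over all genes; 0.176% of all genes passed and 0 of the 35, and the unadjusted p was below the threshold for 3, or 8.57%, against 7.22% of all genes. All 3 comparisons share the superior mesenteric arrays. Arrays did not overlap, with every coronary array the lower, for 7 of the 35 genes, or 20%, against 11.1% of all genes: Laptm5, Cd52, Fcgr2b, Tlr4, H2-Aa, H2-Eb1 and Cd74. For descending aorta below superior mesenteric artery this held for 2 genes (Laptm5 and Trem2), against 10.4% of all genes, and for ascending aorta below superior mesenteric artery for Cd14 alone, against 4.62% of all genes.

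These medians changed direction when superior mesenteric artery replicates 2 and 3 were left out together with ascending aorta replicate 1. Leaving out ascending aorta replicate 1 alone could move only the median for ascending aorta, which became -0.75. The comparisons of coronary artery and descending aorta hold no ascending aorta array, so their medians of -0.87 and -0.77 were unchanged. The 3 arrays were chosen after their values were seen, so the change in direction describes them and tests nothing. With ascending aorta replicate 1 and superior mesenteric artery replicates 2 and 3 left out, the median became 0.07 for coronary minus superior mesenteric artery (16 genes below 0), 0.18 for descending aorta minus superior mesenteric artery (10 below 0) and 0.24 for ascending aorta minus superior mesenteric artery (10 below 0). The superior mesenteric artery is then a single array, assumed to vary like the others. With superior mesenteric artery replicate 1 left out instead, the medians were -1.36, -1.24 and -0.97, and 8, 7 and 0 of the 35 genes passed in limma, against 3.04%, 2.46% and 0.386% of all genes. All 8 were lower in coronary artery. Of the 7, 6 were lower in descending aorta and 1, Gpnmb, was higher there.

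**Figure D5:**
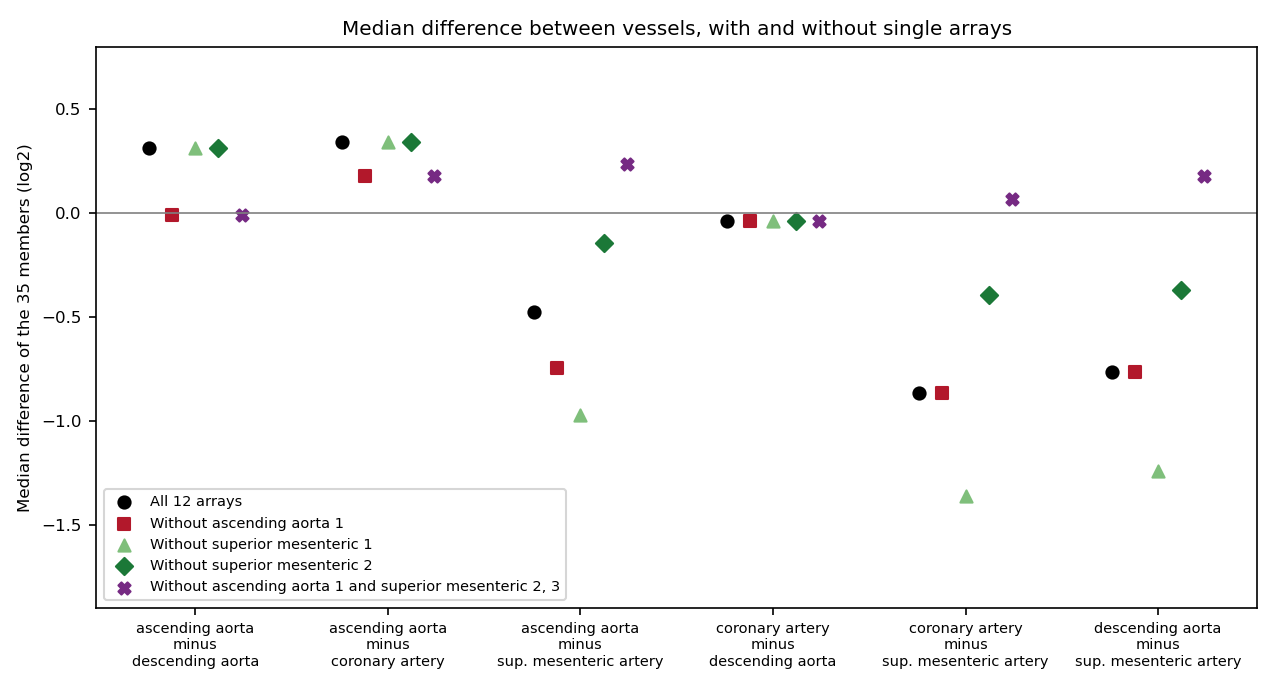
Median log2 difference of the 35 genes in each of the 6 comparisons (horizontal), with all 12 arrays and with named arrays left out (symbols). With all arrays the 3 comparisons against superior mesenteric artery had medians of -0.48, -0.87 and -0.77. With ascending aorta replicate 1 and superior mesenteric artery replicates 2 and 3 left out they were 0.24, 0.07 and 0.18.

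For ascending minus descending aorta the differences ran from -1.003 for F13a1 to 1.28 for Mpeg1, and none passed. The median difference was 0.31, with 23 genes above 0, against -0.02 over all genes; 0.015% of all genes passed and 0 of the 35, and the lowest adjusted p in limma was 0.573 (Mpeg1). Without ascending aorta replicate 1 this median was -0.01. Relative to coronary artery, ascending aorta had a median of 0.34 with 26 genes above 0, against 0.0042 over all genes; 2.47% of all genes passed and 0 of the 35. That median became 0.18 without replicate 1. Coronary artery and descending aorta, which hold none of those 3 arrays, had a median difference of -0.04, with 12 genes above 0 and 23 below. Apart from Gpnmb, the 34 differences ran from -0.79 for H2-Eb1 to 0.39 for Aif1.

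Other genes of the same pathways, from lists drawn up with earlier results of the data known, gave 1 call in all 6 comparisons together. Of all genes, 0.015% to 3.24% passed in a comparison. MHC class II loading and control (12 measured genes), MHC class I presentation (11), ligands of Csf1r and ITAM signalling (13), Toll-like receptor signalling (13) and the NADPH oxidase (4) had no gene past the threshold in limma. A list of resident macrophage markers outside the 35 had 18 measured genes, among them Ptprc, which all leukocytes carry. Of these 18, Maf, a transcription factor of macrophages and other cells, passed for descending aorta minus superior mesenteric artery. Maf was at 5.30, 5.11 and 5.42 in descending aorta and 5.97, 5.96 and 6.43 in superior mesenteric artery (difference -0.84 ± 0.20, limma adjusted p = 0.0420). In that comparison 3.2% of all genes passed. Unlike most of the 35 genes, Maf was as high in superior mesenteric artery replicate 1 as in replicate 2.

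Within these pathways ascending aorta replicate 1 again stood apart from the other arrays of its vessel. Ciita, the master activator of MHC class II transcription, was at 6.27 there and at 3.41 to 4.85 in the other arrays. H2-Oa and H2-Ob, the chains of the loading regulator H2-O, which B cells make, were at 7.98 and 7.95 in that array, against 4.02 and 3.83 for H2-Oa and 3.91 and 3.66 for H2-Ob in replicates 2 and 3. Both were also at least 1 higher in replicates 2 and 3 of superior mesenteric artery than in its replicate 1. Their ascending aorta minus superior mesenteric differences were -0.57 for H2-Oa and -0.72 for H2-Ob, and neither passed. All 4 measured genes of the NADPH oxidase besides Cybb were at least 1 above both other replicates. The mean of those 4 was 7.75, 5.04 and 5.41 in ascending aorta, and 5.61, 7.46 and 6.98 in superior mesenteric artery, against 5.02 to 5.75 in the remaining arrays. Ptprc (CD45), which all leukocytes carry, was at 9.40 in ascending aorta replicate 1 and at 8.19 and 7.94 in replicates 2 and 3 of superior mesenteric artery, against 5.10 to 6.44 in the rest.

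Of the same 18 genes, 8 were at least 1 above both other replicates in ascending aorta replicate 1, Ptprc among them. A further 3 (Stab1, Cbr2 and Cd209f) were at least 1 below both. Over all genes, 5% were above and 6.24% below in this way. Cbr2, a carbonyl reductase, was at 5.55, 8.13 and 8.24 in ascending aorta, and the lectin Cd209f was at 3.34, 6.74 and 6.68, so both were low in replicate 1. Cd209f was also at 4.88, 6.73 and 6.34 in superior mesenteric artery, at least 1 higher in replicates 2 and 3 than in replicate 1. Marco, a scavenger receptor of marginal zone and peritoneal macrophages, was at 7.68, 3.46 and 3.28 in ascending aorta and at 3.73, 8.41 and 6.20 in superior mesenteric artery, against 3.13 to 4.81 elsewhere. Vsig4, the complement receptor CRIg, had 2.03, 2.65 and 3.19 in ascending aorta, 6.24, 4.50 and 7.38 in coronary artery, 3.87, 4.32 and 3.54 in descending aorta, and 4.36, 9.07 and 8.19 in superior mesenteric artery. Its ascending aorta arrays were all below the arrays of every other vessel, and the difference of -4.58 ± 0.99 from superior mesenteric artery had a limma adjusted p of 0.118. Timd4, a phosphatidylserine receptor of resident macrophages, was at 8.93 in ascending aorta replicate 1 and 8.80 and 7.39 in replicates 2 and 3 of superior mesenteric artery, against 4.48 to 6.34 in the other arrays.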

How the data were processed

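Gene expression was measured on 12 Affymetrix arrays, with total RNA extracted in Trizol and biotinylated cRNA made from 6 ug, per the labels' protocols. The authors deposited log2 values for 35556 probe sets. Per the submitters' processing notes, RMA and Partek 6.6 were used, with no role or order given; array medians of 4.04 to 4.18 are those of normalized values. Scanner files and detection calls were not used here. The platform annotation gives 1 symbol to 21789 probe sets, several to 1621 and none to 12146; of the first, 21698 matched RefSeq genes by identifier, and the probe set with the highest mean per gene gave 19938 genes. None of the 35 genes lay among the dimmest 25%, and no pair of arrays had identical values.

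All 12 arrays entered a single linear model, with a mean for each vessel, in limma 3.58.1 (R 4.3.3 and version 1.17.8 of data.table, with 8 residual degrees of freedom), with a moderated F test and 6 contrasts, each adjusted by Benjamini-Hochberg over all genes at a threshold of 0.05. An error after ± is the standard error of the model unless SD is written. The procedure was also run on simulated data with independent normal values for each gene. Those data hold no arrays that depart over many genes at once, so the run cannot show how calls behave with such arrays. Python 3.11.15 and matplotlib 3.10.9 drew the figures.

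The 35 genes, the other gene lists and the rule for naming genes were chosen with earlier results of these data known. The rule named in full every gene that passed and, per role, the genes with the highest mean and with the widest range of vessel means; of other lists, genes that passed or the 2 with the largest difference. Other genes of the 35 given array by array (among them Cd74, Laptm5, Adgre1, Cd14 and Cd163), the counts over single arrays, and Ciita, Ptprc, Stab1, Cbr2, Cd209f, Timd4 and the monocyte and neutrophil markers named were chosen after their values were seen.

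Alternatives were renewed quantile normalization, leaving out dim genes, averaging probe sets, limma's array weights, a robust variance prior with an intensity trend, a replicate block, a threshold of 0.01, fitting only the 6 arrays of a pair, adjustment over the 6 comparisons together, leaving out each array, and leaving out 3 arrays with transcripts of other tissues (replicate 1 of ascending aorta, replicate 1 of descending aorta, replicate 3 of superior mesenteric artery). Arrays that were kept also held such transcripts. The cardiomyocyte mean was 10.17 to 10.42 in the coronary arrays and 5.91 in superior mesenteric artery replicate 1, against 6.04 in descending aorta replicate 1. A fit without ascending aorta replicate 1 and superior mesenteric artery replicates 2 and 3 was added after the data were seen.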

Additional observations from a re-analysis of the deposited data

How the results depend on the processing

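Of the 35 genes, 0 passed for ascending minus descending aorta under every alternative run, where at most 0.241% of all genes passed. Across the 4 vessels the count was 0, against 4 with array weights (9.12% of all genes), 1 without the 3 arrays in which leukocyte transcripts stood apart (ascending aorta replicate 1 and superior mesenteric artery replicates 2 and 3; 10.5% of all genes), and 0 to 10 when each array was left out in turn. The 10 (Spi1, Msr1, Fcgr2b, Fcgr3, Fcer1g, Tyrobp, Cd14, Clec7a, Gpnmb and Lgals3) passed without superior mesenteric artery replicate 1 (4.69% of all genes), and 2 (H2-Eb1 and Cd74) without ascending aorta replicate 1 (9.15%). Without the 3 leukocyte-rich arrays, 1 gene (Gpnmb) passed for ascending aorta minus coronary artery (5.73% of all genes) and 1 (Gpnmb, lower) for coronary minus superior mesenteric artery (6.59%). For coronary minus superior mesenteric artery the count of 0 became 8 with array weights (5.66% of all genes) and 1 when only the 6 arrays of the pair were fitted (3.8%), and ran from 0 to 8 over single arrays left out, with 4 (Laptm5, H2-Aa, H2-Eb1 and Cd74) without ascending aorta replicate 1 (6.48%) and 8 without superior mesenteric artery replicate 1 (3.04%). For descending aorta minus superior mesenteric artery it became 5 with array weights (6.8% of all genes), and ran from 0 to 7 over single arrays, with 1 (Laptm5) without ascending aorta replicate 1 (6.83%) and 7 without superior mesenteric artery replicate 1 (2.46%). Gpnmb was among both the 5 and the 7 and was higher in descending aorta, while the others were lower. For ascending aorta minus superior mesenteric artery it ran from 0 to 1, H2-Eb1 passing without ascending aorta replicate 1 (3.15% of all genes). For coronary minus descending aorta the count of 1 (Gpnmb) became 0 with renewed quantile normalization (2.78% of all genes) and a threshold of 0.01 (1.62%). It was also 0 with the 3 arrays named above for transcripts of other tissues left out (3.63%) and with adjustment over the 6 comparisons together (2.6%). Over single arrays left out it ran from 0 to 1, against 1.63% to 5.3% of all genes. With the replicate block it was 0 as well (2.63% of all genes, Gpnmb limma adjusted p = 0.0805). Same-numbered arrays did not deviate together (correlations of -0.251 to 0.0889, 0 of 18 above 0.1). Single arrays differed widely in leukocyte and smooth muscle transcripts, so these correlations cannot show whether same-numbered arrays share an animal. The cause of these changes was not tested. With 3 arrays per vessel, a p that misses the threshold does not show that vessels have equal values.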
